A study of Mus musculus with 4 samples.

Results

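The 8 genes described here encode proteins that switch plasminogen activation on, hold it back or clear its components: the activators Plau and Plat, the inhibitors Serpine2 and Serpinb2, the receptors Lrp1, Mrc2 and Plgrkt, and the matrix protein Vtn. They were taken by symbol from the 32285 genes of the deposited gene list, all 8 were found, and every one had UMIs (unique molecular identifiers, 1 per captured molecule) in all 4 libraries. The samples were liver non-parenchymal cells of male C57BL/6J mice that were 8 weeks old at the start. The MASH mice followed the Fibrosis and Tumor (FAT) MASH model, a model of metabolic dysfunction-associated steatohepatitis, for 12 or 24 weeks. That regimen joined a Western diet (41% sucrose, 21.1% fat, cholesterol at 1.25%) to sugar water with 23.1 g fructose and 18.9 g glucose per litre and to a weekly injected low dose of carbon tetrachloride (CCl4). Mice on regular chow were the controls at both weeks. No genetic change is named for any group. The chow mice had neither the diet nor the toxin, so the parts of the regimen cannot be told apart. Each diet and week had 1 library, so no difference below has a replicate check, and no p-value is given. The labels do not say how many mice went into a library. The submitters state that most hepatocytes were removed and that they examined expression of the urokinase receptor.

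Plasminogen is made by hepatocytes and circulates as an inactive precursor of plasmin, the protease that dissolves fibrin and also cuts matrix proteins. Urokinase (Plau), bound to its cell-surface receptor uPAR (Plaur), and tissue-type activator (Plat), bound to fibrin, turn plasminogen into plasmin. Serpin inhibitors trap the activators in stable complexes, and Lrp1, a large endocytic receptor of macrophages, fibroblasts and hepatocytes, takes these complexes up. In liver this system is known for its part in fibrin removal and in matrix turnover during fibrosis.

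Promoter sequence was available from RefSeq on GRCm38.p6 for 5 of the 8 members, as the 250 bases before a RefSeq start, and 3 are shown. They were chosen as the most restricted inhibitor, the member with the largest ratio and the member with the most even level across cells. Capitals mark matches, on either strand, to TATAAA (core promoter box), TGANTCA (AP-1 type), CCAAT and GGGCGG (GC box). Overlapping matches share their letters.
Serpinb2, chr1:107511173-107511422, plus strand: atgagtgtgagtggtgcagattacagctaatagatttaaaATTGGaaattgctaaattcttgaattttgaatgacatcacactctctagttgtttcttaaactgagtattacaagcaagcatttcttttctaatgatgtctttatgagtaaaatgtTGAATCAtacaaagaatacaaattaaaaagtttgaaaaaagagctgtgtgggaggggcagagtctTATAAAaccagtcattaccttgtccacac
Vtn, chr11:78498870-78499119, plus strand: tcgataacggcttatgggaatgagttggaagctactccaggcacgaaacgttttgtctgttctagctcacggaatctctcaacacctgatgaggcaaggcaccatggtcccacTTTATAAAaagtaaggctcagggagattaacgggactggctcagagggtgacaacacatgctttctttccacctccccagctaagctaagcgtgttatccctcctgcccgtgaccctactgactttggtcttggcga
Plgrkt, chr19:29361872-29362121, minus strand: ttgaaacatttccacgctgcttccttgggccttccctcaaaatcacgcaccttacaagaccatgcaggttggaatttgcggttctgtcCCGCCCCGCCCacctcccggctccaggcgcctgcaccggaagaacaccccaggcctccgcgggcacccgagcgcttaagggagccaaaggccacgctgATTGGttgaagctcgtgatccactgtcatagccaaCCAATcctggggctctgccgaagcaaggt

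The Serpinb2 window held a TATAAA whose first base lay 29 bases upstream of the start and a TGANTCA match 94 bases upstream, with a GC content of 32.4%. The Vtn window held 2 overlapping TATAAA matches, 137 and 135 bases upstream, at 50.4% GC. The Plgrkt window held no TATAAA or TGANTCA match, 2 CCAAT and 2 GGGCGG matches, at 60% GC. Of 32851 promoters of the same length, 12.4% held TATAAA, 6.75% TGANTCA, 33.8% CCAAT and 32.7% GGGCGG, and the median GC content was 52.4%. A second annotated start of Serpinb2 lies downstream, and the same TATAAA and TGANTCA letters stand 116 and 181 bases before it. These matches are letters in a window and were not related to binding.

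After filtering, 15148 cells were kept in the 12-week MASH library, 16244 in 12-week chow, 17832 in 24-week MASH and 20783 in 24-week chow. The median depth per cell was 3065 and 3206 UMIs in MASH and 1978 and 2044 UMIs in chow, so MASH cells were the deeper at both weeks. Levels are therefore given as CPM, the UMIs of a gene scaled to the UMIs summed over the cells named, with the exact Poisson 95% interval in parentheses. Over all cells of a library, 1 UMI was worth 0.0153 and 0.0115 CPM in 12- and 24-week MASH and 0.0233 and 0.0179 CPM in 12- and 24-week chow. Intervals cover counting error only. Barcodes shared between pairs of libraries came to 2.67% to 4.02% of the smaller list. The cells were grouped into 15 named classes by marker genes, with the 8 members and related genes kept out of the clustering, and each class is written as "-like". Fewer cells of a class and less RNA per cell cannot be told apart in a sum over all cells.

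Over all cells, some members were higher in MASH at both weeks and none was called lower. A ratio was called when it was at least 2-fold and its exact 95% counting interval left out 1, among genes with at least 20 UMIs over the pair. By this rule 4 of 8 members were called higher and 0 lower in MASH at 12 weeks, where 9.29% of all 16980 genes tested were called higher and 3.52% lower. At 24 weeks 6 of 8 were called higher and 0 lower, against 14.3% and 3.98% of 17805 genes. The 4 at 12 weeks were Plat, Serpinb2, Lrp1 and Mrc2, and all of them were also called at 24 weeks, together with Plau and Vtn. The median log2 ratio of all genes tested was -0.02 at 12 weeks and 0.06 at 24 weeks.

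Lrp1 measured 93.2 CPM in MASH (90.9 to 95.6) and 25.2 CPM in chow (23.7 to 26.7) at 12 weeks, a ratio of 3.70 (3.47 to 3.95). At 24 weeks it measured 93.9 CPM in MASH and 15.8 CPM in chow, a ratio of 5.94 (5.54 to 6.38). The Lrp1 level was thus nearly the same in the 2 MASH libraries and lower in the later chow library. Serpinb2 measured 18.8 CPM in MASH and 3.09 CPM in chow at 12 weeks, and 6.22 CPM in MASH and 1.86 CPM in chow at 24 weeks. Its ratios were 6.08 (5.08 to 7.33) and 3.34 (2.70 to 4.16), the highest of the 8 at 12 weeks. Mrc2 was the scarcest member, at 4.19 CPM in MASH and 0.837 CPM in chow at 12 weeks and 1.11 CPM in MASH and 0.143 CPM in chow at 24 weeks. The 24-week chow value of Mrc2 rested on 8 UMIs, and its ratio of 7.78 had an interval of 3.79 to 18.5.

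Plat measured 8.54 CPM in MASH and 2.74 CPM in chow at 12 weeks, and 2.01 CPM in MASH and 0.769 CPM in chow at 24 weeks, with ratios of 3.11 (2.55 to 3.83) and 2.61 (1.86 to 3.73). Its 24-week call was lost without doublet removal, at a ratio of 1.63, and with the mean of per-cell CPM, at 1.81. Plau differed little at 12 weeks, with 6.30 CPM in MASH and 6.47 CPM in chow, and was higher at 24 weeks, with 8.58 CPM in MASH and 2.77 CPM in chow, a ratio of 3.09 (2.60 to 3.70). Vtn measured 10.8 CPM in MASH and 6.05 CPM in chow at 12 weeks, a ratio of 1.79 that was not called, and 35.9 CPM in MASH and 4.54 CPM in chow at 24 weeks, a ratio of 7.89 (6.95 to 9.01). The other two members were not called at either week: Serpine2 had ratios of 1.31 (1.10 to 1.56) and 1.15 (0.928 to 1.44), and Plgrkt 0.922 (0.880 to 0.966) and 0.930 (0.892 to 0.970).

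**Figure D1:**
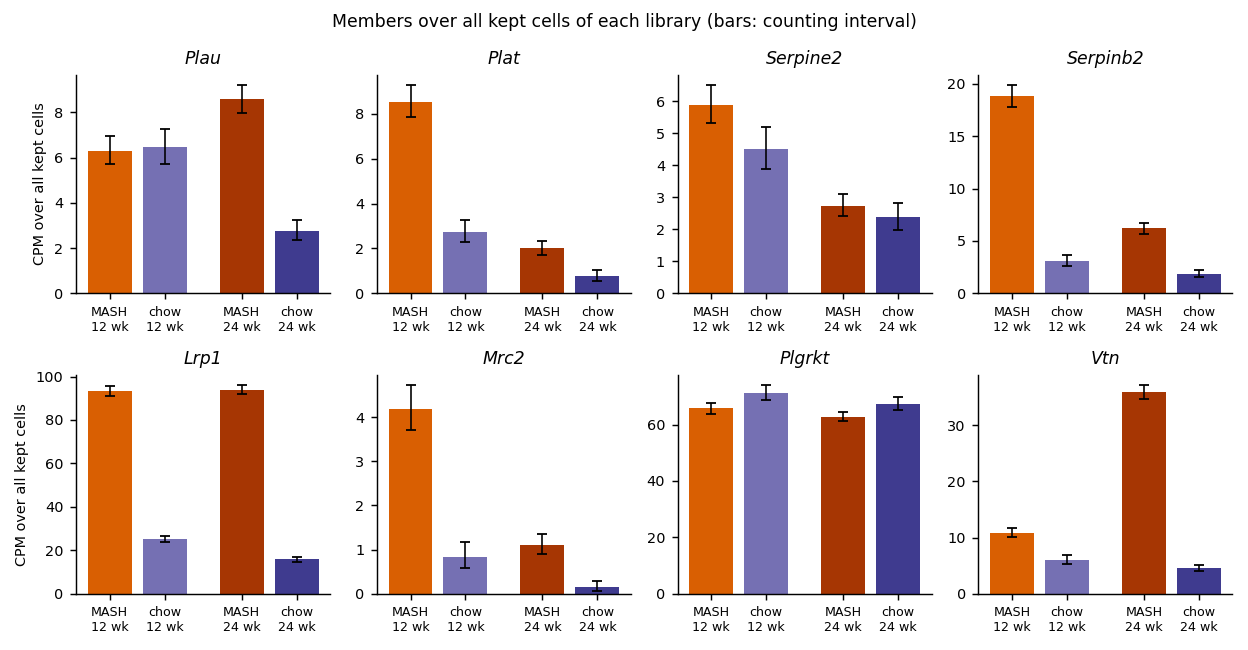
Level of each member in CPM over all kept cells (y axis, from 0) in the 4 libraries (x axis, MASH and chow at 12 and at 24 weeks); bars are library values and error bars are exact Poisson 95% intervals. Lrp1 stood at 93.2 and 93.9 CPM in MASH against 25.2 and 15.8 CPM in chow, while Plgrkt stood between 62.8 and 71.4 CPM in all 4.

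The members came from different cells. A large share of the UMIs of Plat and Mrc2 came from mesenchymal-like cells, of Plau from sinusoidal-endothelial-like or macrophage-like cells, of Serpinb2 and Lrp1 from monocyte-like cells and of Vtn from cholangiocyte-like or hepatocyte-like cells. Mesenchymal-like cells numbered 288 in MASH and 83 in chow at 12 weeks and 126 in MASH and 6 in chow at 24 weeks. Macrophage-like cells numbered 370 in MASH and 78 in chow at 12 weeks and 683 in MASH and 11 in chow at 24 weeks. With 6 and 11 cells in the 24-week chow library, no MASH over chow ratio was formed within these classes at that week. The cells were enriched on Percoll, so these numbers describe the suspension and not the intact liver.

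**Figure D2:**
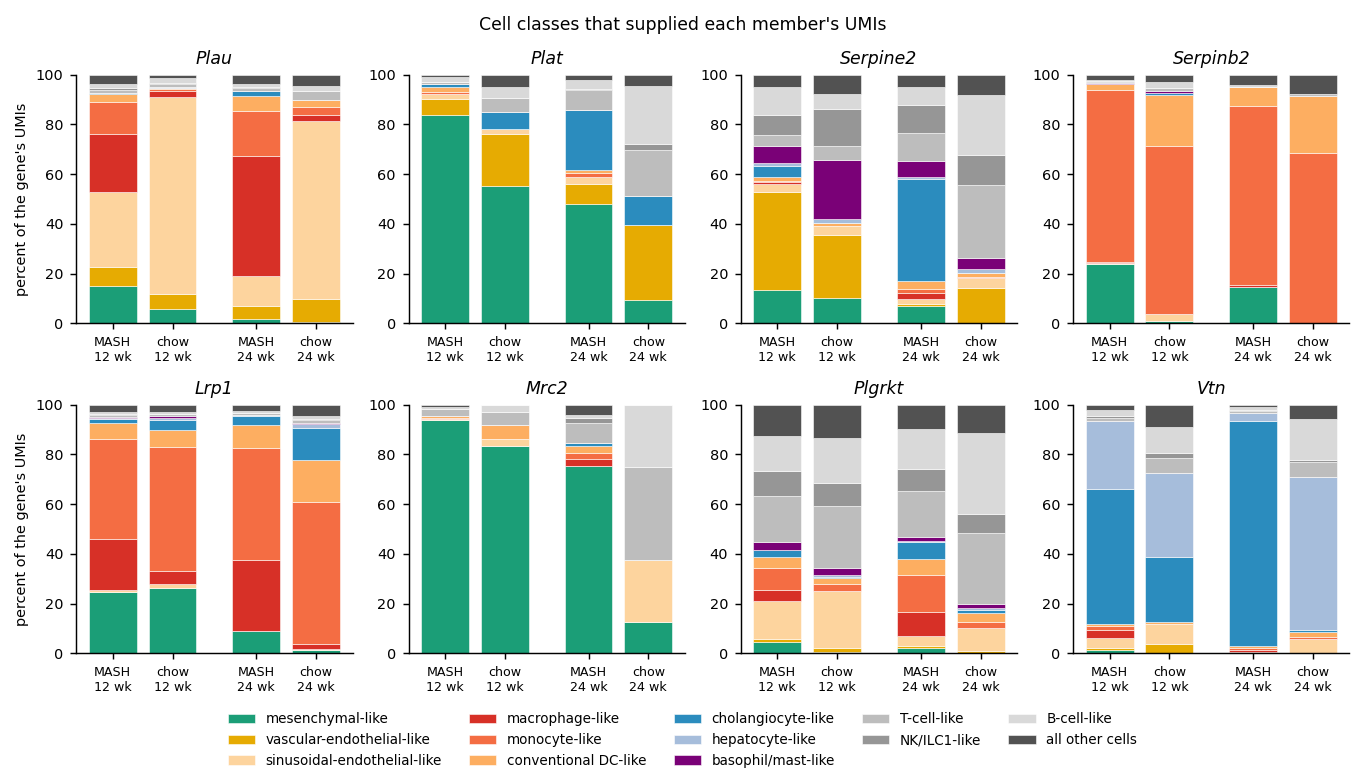
Share of each member's UMIs (y axis, percent) that came from each cell class (colours) in each library (x axis). Mesenchymal-like cells gave 83.9% of Plat UMIs and 93.8% of Mrc2 UMIs in 12-week MASH, while Plgrkt was spread over all classes.

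To separate cell makeup from level, each library's all-cell value was rebuilt with the class levels of chow and the class makeup of MASH, and the reverse. For Lrp1 at 12 weeks the makeup alone gave a ratio of 3.82 and the levels alone 1.26, beside the measured 3.70. Plat gave 4.06 from makeup and 0.923 from levels, and Mrc2 5.53 from makeup and 1.09 from levels. At 12 weeks the rebuilt makeup ratio of these 3 genes was close to or above the measured one. At 24 weeks this held for Lrp1 (6.37 beside 5.94) and Plat (4.02 beside 2.61) but not for Mrc2, with 4.45 from makeup and 2.10 from levels beside 7.78. Serpinb2 at 12 weeks gave 2.48 from makeup and 2.02 from levels, both below its measured 6.08, and at 24 weeks 3.74 from makeup and 0.847 from levels beside 3.34. Vtn at 24 weeks went the other way, with 0.529 from makeup and 2.93 from levels beside the measured 7.89. Class levels also carry differences in the groups of cells within a class (sub-clusters). Of the 44 cholangiocyte-like cells in 24-week chow, with 2 Vtn UMIs, 43 lay in a sub-cluster with 0 cells in 24-week MASH. A monocyte-like sub-cluster high in Serpinb2 held 208 cells in 12-week MASH and 1 in 12-week chow. The levels ratios of Vtn and Serpinb2 therefore do not give a difference within 1 kind of cell. All rebuilt ratios are arithmetic exchanges between pairs of libraries, and they take the class of each cell as given. At 24 weeks the chow levels of mesenchymal-like and macrophage-like cells came from 6 and 11 cells, so those rebuilt ratios rest on few counts.

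**Figure D3:**
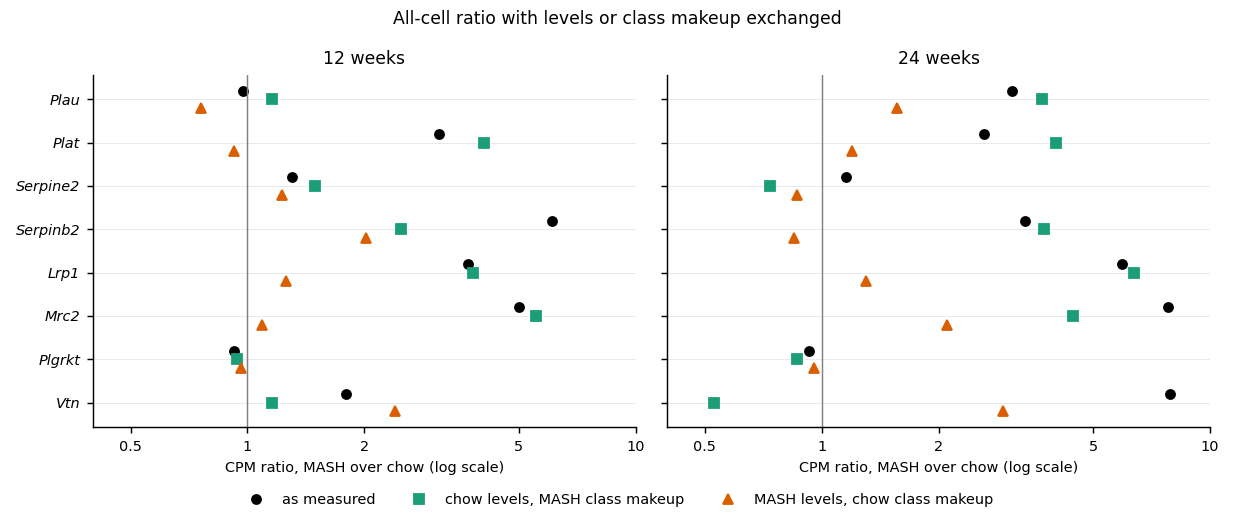
Ratio of CPM over all cells, MASH over chow (x axis, log scale), for each member (y axis) at 12 weeks (left) and 24 weeks (right): black circles as measured, green squares with chow levels and MASH class makeup, orange triangles with MASH levels and chow class makeup. Green and black lie close together for Lrp1 (3.82 and 3.70 at 12 weeks) and apart for Vtn (0.529 and 7.89 at 24 weeks). The 24-week chow levels of mesenchymal-like and macrophage-like cells came from 6 and 11 cells. Of the 44 cholangiocyte-like cells in 24-week chow, 43 lay in a sub-cluster with 0 cells in 24-week MASH.

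Within each member's leading class, the class with the highest mean CPM over libraries, few calls remained. That mean used 3 libraries for macrophage-like and mesenchymal-like cells and 4 for the others. Under some alternative settings the leading class of Serpinb2 was macrophage-like or mesenchymal-like, that of Serpine2 basophil/mast-like or mesenchymal-like and that of Plau sinusoidal-endothelial-like. Plat, Lrp1 and Mrc2 moved too, where leaving out sub-clusters kept mesenchymal-like cells from reaching 20 cells in 3 libraries. Plat then led in vascular-endothelial-like, Lrp1 in monocyte-like or macrophage-like and Mrc2 in conventional-dendritic-like cells. Leaving out sub-clusters with T-cell markers took out every macrophage-like sub-cluster. At 12 weeks 2 of the 8 were called higher in MASH and 0 lower, Serpinb2 in monocyte-like cells, where 6.34% of all genes tested were called higher and 1.44% lower, and Serpine2 in vascular-endothelial-like cells, where 1.95% were called higher and 1.95% lower. In the classes with no member called, the genes called higher and lower were 4.83% and 5.86% in mesenchymal-like, 2.58% and 3.52% in macrophage-like, 6.46% and 4.62% in cholangiocyte-like and 2.81% and 3.32% in basophil/mast-like cells. At 24 weeks, 4 members could be compared in their leading class, and 1 was called higher and 1 lower. These were Vtn in cholangiocyte-like cells, where 21.5% of genes were called higher and 6.75% lower, and Serpine2 in vascular-endothelial-like cells, where 3.96% were called higher and 3.99% lower. No member was called in monocyte-like cells, where 5.14% and 1.7% of genes were called higher and lower, or in basophil/mast-like cells, where 5.7% and 2.95% were. The cells compared for the 12-week Serpinb2 call and the 24-week Serpine2 and Vtn calls came from different sub-clusters in the 2 diets. Without the sub-cluster led by Saa3 and Prg4, the 12-week Serpinb2 ratio was 0.466 and called lower.

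**Figure D4:**
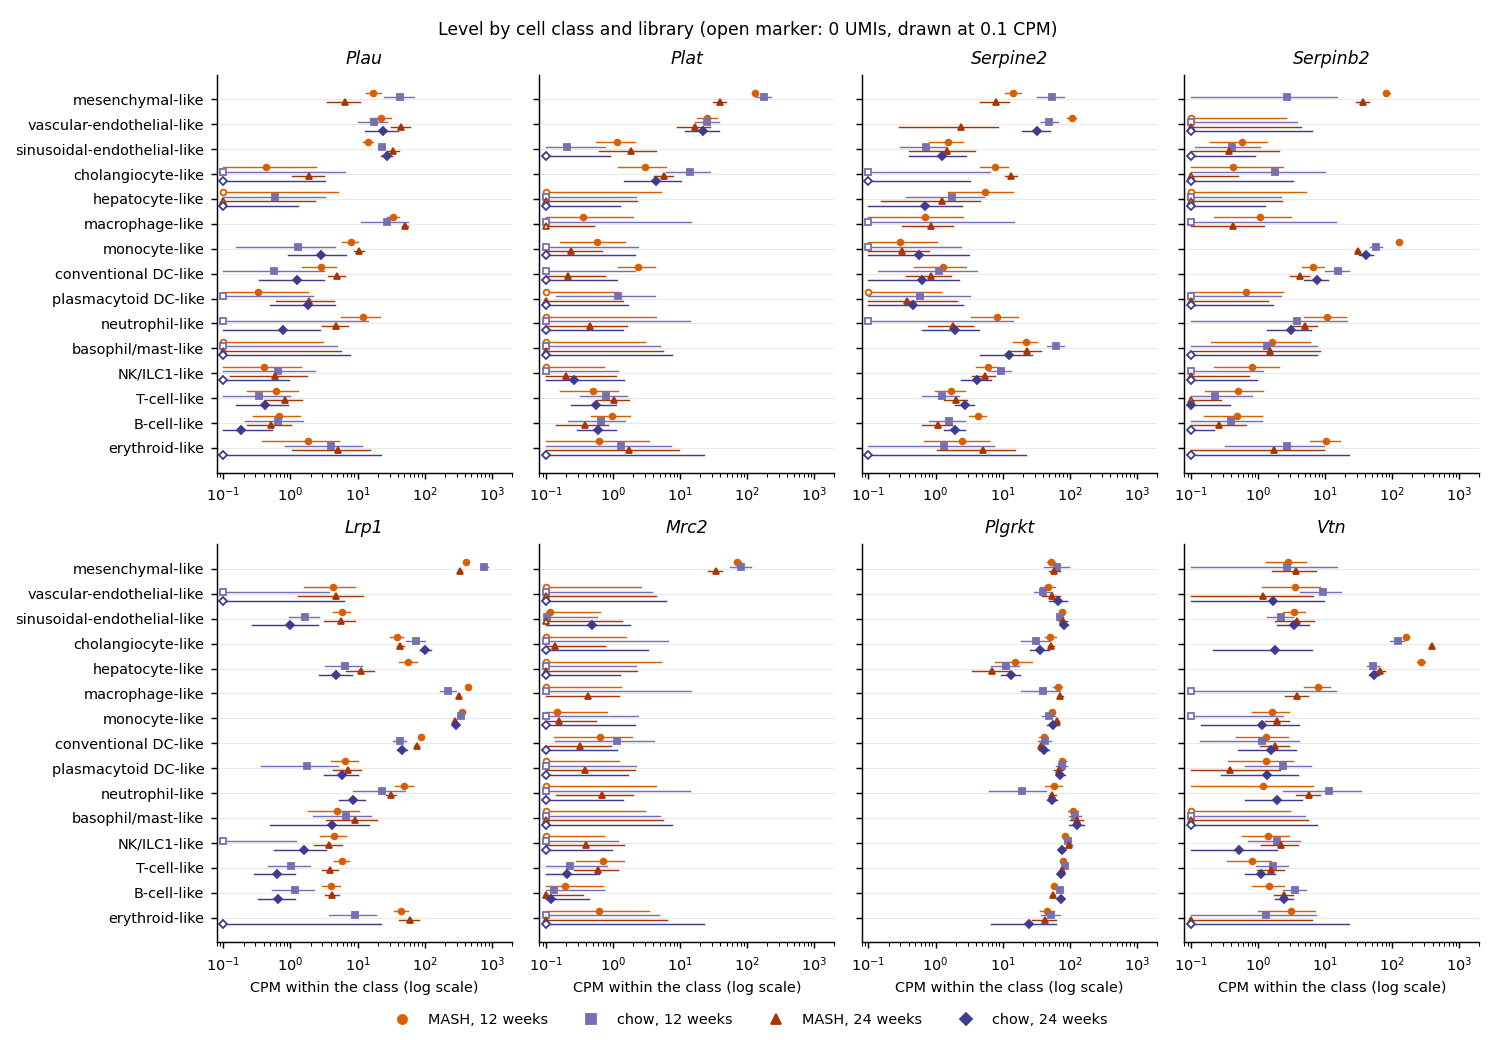
Level of each member in CPM (x axis, log scale) in 15 cell classes (y axis) and 4 libraries (marker shape and colour), for classes with at least 20 cells; lines are exact Poisson 95% intervals, cut at 0.1 CPM, and open markers stand for 0 UMIs. Mrc2 stood out in mesenchymal-like cells alone (71.5 CPM in 12-week MASH), whereas Plgrkt had UMIs in every class, from 6.90 CPM in hepatocyte-like cells to 129 CPM in basophil/mast-like cells of 24-week MASH.

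Plau (chr14:20836660-20843385 on GRCm38, plus strand) encodes urokinase, the activator that works on cell surfaces. Macrophage-like cells had 33.8 CPM in MASH (27.4 to 41.3) and 27.6 CPM in chow (11.1 to 56.9) at 12 weeks, a ratio of 1.22 (0.572 to 3.13), and 51.1 CPM in MASH at 24 weeks. The 12-week ratio was called higher without doublet removal, at 2.77 (1.05 to 10.4), and with clusters at resolution 0.5, at 3.09 (1.58 to 6.89). At resolution 0.5 no monocyte-like ratio was formed and Serpinb2 led in macrophage-like cells, so that class may not hold the same cells. Sinusoidal-endothelial-like cells had 14.3 CPM in MASH and 22.9 CPM in chow at 12 weeks, a ratio of 0.626 (0.498 to 0.784), and 34.1 CPM in MASH and 27.4 CPM in chow at 24 weeks. The source of Plau therefore differed between diets: sinusoidal-endothelial-like cells supplied 29.9% of its UMIs in MASH and 79.1% in chow at 12 weeks, and 12.2% in MASH and 71.6% in chow at 24 weeks. Macrophage-like cells supplied 23.3% in MASH and 2.52% in chow at 12 weeks, and 48.3% in MASH and 2.58% in chow at 24 weeks. Vascular-endothelial-like cells carried it at comparable levels, 22.7 CPM in MASH and 17.3 CPM in chow at 12 weeks and 44.1 CPM in MASH and 23.8 CPM in chow at 24 weeks. The intervals of these 3 classes overlapped in 12-week chow, so their order there was not resolved.

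Plau was low in monocyte-like cells but was called higher there in MASH at both weeks. It measured 7.92 CPM in MASH and 1.29 CPM in chow at 12 weeks, on 54 and 2 UMIs, a ratio of 6.13 (1.62 to 51.9). At 24 weeks it measured 10.4 CPM in MASH and 2.87 CPM in chow, a ratio of 3.64 (1.52 to 11.4). Over the 3 hashtags of 12-week MASH the Plau level in these cells was 3.82, 23.8 and 3.07 CPM, so 1 hashtag stood apart, while it ran from 0 to 2.71 CPM over the 3 of 12-week chow. The T-cell markers of the class summed to 567 CPM in MASH and 259 CPM in chow at 24 weeks, and their part in the Plau level was not tested. In mesenchymal-like cells it was called lower at 12 weeks, with 17.2 CPM in MASH and 43.4 CPM in chow, a ratio of 0.397 (0.226 to 0.737). That class held different sub-clusters in the 2 libraries: in the sub-cluster led by Gsn and Pi16, with 49 cells in each, Plau had 79.8 CPM in MASH and 70.5 CPM in chow. Sub-clusters were drawn after the class values had been seen and are named by their leading genes. Among the macrophage-like sub-clusters, the one with the most Plau UMIs in 24-week MASH was led by immunoglobulin genes and held Mmp12 and Gpnmb among its leading genes, at 79.6 CPM over 168 cells. T-cell markers were present in these classes: the 8 markers summed to 962 CPM in MASH and 1681 CPM in chow in macrophage-like cells at 12 weeks and 868 CPM in MASH at 24 weeks. In sinusoidal-endothelial-like cells they summed to 1777 CPM in MASH and 2536 CPM in chow at 12 weeks, and 1684 CPM in MASH and 2435 CPM in chow at 24 weeks. Their part in the Plau levels was not tested.

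Cells carried hashtag antibodies, and among those with 1 hashtag at 12 weeks the sinusoidal-endothelial-like Plau level ran from 12.3 to 20.8 CPM over 3 hashtags in MASH and from 12.3 to 46.8 CPM over 3 in chow, so the ranges overlapped. What each hashtag stands for is not given, so hashtags are not counted as replicates.

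Plat (chr8:22757727-22782844, plus strand) encodes tissue-type plasminogen activator, which works on fibrin. Its leading class was mesenchymal-like, with 130 CPM in MASH (119 to 142) and 176 CPM in chow (136 to 225) at 12 weeks, a ratio of 0.737 (0.568 to 0.971), and 39.0 CPM in 24-week MASH (31.1 to 48.3). Over all cells Plat was higher in MASH, and within its main source it was not. Mesenchymal-like cells gave 83.9% of its UMIs in MASH and 55.1% in chow at 12 weeks, and 48.0% in MASH and 9.30% in chow at 24 weeks. In the Gsn and Pi16 sub-cluster at 12 weeks it had 217 CPM in MASH and 260 CPM in chow, with overlapping intervals. The sub-cluster led by Spp1 and Cxcl5, which also held Acta2 among its leading genes and had no chow cells, had 143 CPM in 12-week MASH and 75.4 CPM in 24-week MASH. Fibroblast, stellate and mesothelial markers were all present in the class, which scored highest for the mesothelial set and next for the fibroblast set. The 7 mesothelial markers summed to 2671 CPM in MASH and 2750 CPM in chow at 12 weeks and 2825 CPM in 24-week MASH. The 8 fibroblast markers summed to 2744 CPM in MASH and 10948 CPM in chow at 12 weeks and 432 CPM in 24-week MASH, and the stellate markers Lrat, Reln and Rgs5 were at 0 in 12-week chow. In the Gsn and Pi16 sub-cluster 6 of 8 T-cell markers were seen in at least 10% of cells. The part of this mixture in the Plat levels was not tested.

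Plat was also found in part of the vascular-endothelial-like class, which had 25.6 CPM in MASH and 25.5 CPM in chow at 12 weeks, and 16.7 CPM in MASH and 22.1 CPM in chow at 24 weeks. The sub-clusters led by Fmo2 and Col6a3 and by Dnase1l3 and Hbb-bs had 0 Plat UMIs in every library. The sub-cluster led by Adgrg6 and Msr1, which also held the arterial gap-junction gene Gja5 among its leading genes, had Plat at 57.2 CPM in MASH and 76.0 CPM in chow at 12 weeks and 117 CPM in both diets at 24 weeks. The intervals of the diets overlapped there at both weeks. Plat was also seen in the Mmrn1 and Ccl21a sub-cluster, at 67.3 CPM in MASH and 51.9 CPM in chow at 12 weeks, and in the sub-cluster led by Sparcl1 and Igfbp3, at 56.3 CPM over all libraries on 17 UMIs.

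Serpine2 (chr1:79794197-79861180, minus strand) encodes protease nexin-1, a cell-surface and matrix-bound inhibitor of urokinase, tissue-type activator and thrombin. In vascular-endothelial-like cells it had 107 CPM in MASH (90.9 to 126) and 49.9 CPM in chow (36.9 to 66.0) at 12 weeks, a ratio of 2.15 (1.55 to 3.03). At 24 weeks the order was turned round, with 2.39 CPM in MASH (0.289 to 8.62) and 32.3 CPM in chow (19.5 to 50.5), on 2 and 19 UMIs, a ratio of 0.0738 (0.00834 to 0.306). Of these UMIs, 148 of 151 in 12-week MASH, 49 of 49 in 12-week chow and 18 of 19 in 24-week chow came from the sub-cluster led by Mmrn1 and Ccl21a, in which Prox1 and Lyve1 stood at 485 and 3668 CPM, against 3.28 and 97.3 CPM in the other vascular-endothelial-like cells. These 4 genes are known from lymphatic endothelium, though no lymphatic marker list was used here and the cells are not named. That sub-cluster held 43 cells in MASH and 59 in chow at 12 weeks, and 1 cell in MASH and 17 in chow at 24 weeks.

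Within the Mmrn1 and Ccl21a sub-cluster Serpine2 had 623 CPM in MASH (526 to 731) and 318 CPM in chow (235 to 421) at 12 weeks, and 252 CPM in 24-week chow (149 to 398). The 12-week ratio there was 1.96 (1.41 to 2.76), just under the 2-fold rule. The 24-week MASH library held 1 such cell, so no level could be compared there. Without this sub-cluster the 24-week ratio in the class was 1.24 (0.0643 to 72.9), and the lower call ended. Over the 3 hashtags of each 12-week library, the vascular-endothelial-like level ran from 25.6 to 102 CPM in MASH and from 27.2 to 35.2 CPM in chow, so the ranges overlapped.

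Other classes also carried Serpine2, and the order of the classes differed between libraries. Basophil/mast-like cells had 22.1 CPM in MASH and 62.1 CPM in chow at 12 weeks, a ratio of 0.356 (0.213 to 0.584), and 22.7 CPM in MASH and 12.5 CPM in chow at 24 weeks. The leading genes of that class held Elane, Mpo, Prtn3 and Ctsg beside the class markers Prss34, Mcpt8, Cpa3 and Fcer1a. Its 8 markers summed to 5716 CPM in MASH and 4717 CPM in chow at 12 weeks. At 24 weeks they summed to 2624 CPM in MASH and 3233 CPM in chow. The part of this mixture in the Serpine2 level was not tested. Mesenchymal-like cells had 14.5 CPM in MASH and 54.3 CPM in chow at 12 weeks, a ratio of 0.266 (0.156 to 0.471). The lower level was also seen inside the Gsn and Pi16 sub-cluster, with 35.8 CPM in MASH and 88.1 CPM in chow, a ratio of 0.406 (0.186 to 0.858). Cholangiocyte-like cells had 7.67 CPM in MASH and 0 UMIs in chow at 12 weeks, where a count of 0 allows up to 5.31 CPM. At 24 weeks they had 13.4 CPM in MASH and 0 UMIs in chow, at least 5.01-fold higher by the limit of 3 counts in that class, with 4.001 as the lower end of the exact interval. Of the 44 chow cells, 43 lay in the Dmbt1 and Spink4 sub-cluster. Of the 98 UMIs in 24-week MASH cholangiocyte-like cells, 72 lay in the sub-cluster led by Ccl2 and Rgs5, which had 1 cell in 24-week chow.

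Serpinb2 (chr1:107511423-107535478, plus strand) encodes plasminogen activator inhibitor type 2, an inhibitor of urokinase that is found largely inside cells and is known from activated monocytes. The gene overlaps Serpinb10 on the same strand, which is absent from the feature table used for counting. Monocyte-like cells supplied 69.2% of its UMIs in MASH and 67.7% in chow at 12 weeks, and 72.1% in MASH and 68.3% in chow at 24 weeks. They had 125 CPM in MASH (117 to 133) and 58.1 CPM in chow (46.7 to 71.4) at 12 weeks, a ratio of 2.15 (1.73 to 2.70). At 24 weeks they had 30.5 CPM in MASH (27.5 to 33.6) and 40.7 CPM in chow (31.8 to 51.4), a ratio of 0.748 (0.580 to 0.977). The share of monocyte-like cells with a UMI did not follow the 12-week level: it was 18.0% in MASH and 18.6% in chow, and 5.84% in MASH and 5.68% in chow after thinning each cell to 1000 UMIs, which left out 19 and 8 cells. T-cell-like cells had a UMI in 0.202% in MASH and 0.0721% in chow at 12 weeks, at median depths of 3542 and 2749 UMIs.

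The 12-week difference rested on 1 sub-cluster of the monocyte-like class, led by Saa3 and Prg4. It held 208 cells in 12-week MASH and 1 in 12-week chow, and 31 in 24-week MASH and 0 in 24-week chow. There Serpinb2 had 398 CPM in 12-week MASH (370 to 429) and 438 CPM in 24-week MASH (375 to 509), with overlapping intervals. Its 714 UMIs were 58.1% of all Serpinb2 UMIs in 12-week MASH, and its 171 UMIs were 31.5% in 24-week MASH. The values were uneven: 78 of the 208 cells had any Serpinb2 UMI, and the highest cell had 71, while in 24-week MASH 7 of 31 cells had any and 1 cell held 96 of the 171 UMIs.

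This sub-cluster did not look like the rest of its class. The macrophage genes C1qa and Adgre1 stood at 1100.2 and 409 CPM in it, against 103 and 66.0 CPM in the other monocyte-like cells, while the monocyte gene Ly6c2 stood at 166 CPM, against 1379.7 CPM in the others. Of 8 T-cell markers, 6 were seen in at least 10% of its cells. Several hashtags were carried by 26.7% of its cells, within the range of 15.8% to 48.9% of the other monocyte-like sub-clusters. In the Saa3 and Prg4 sub-cluster 150 cells of 12-week MASH had 1 hashtag, and 114 of them carried the same 1 of 3 hashtags. Over those hashtags the monocyte-like level was 35.5, 38.1 and 265 CPM in 12-week MASH, while it ran from 49.4 to 62.4 CPM over the 3 hashtags of 12-week chow. The part of these features in the Serpinb2 level was not tested.

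Summed together, the remaining monocyte-like cells had a lower Serpinb2 level in MASH. They had 27.2 CPM in MASH and 58.5 CPM in chow at 12 weeks, a ratio of 0.466 (0.355 to 0.615), and 17.7 CPM in MASH and 40.7 CPM in chow at 24 weeks, a ratio of 0.434 (0.331 to 0.576). At 12 weeks the sub-cluster led by F13a1 and Chil3 had 34.4 CPM in MASH and 65.9 CPM in chow, a ratio of 0.522 that was not called, and at 24 weeks 30.4 CPM in both diets. The sub-cluster led by Pglyrp1 and Eno3, with the non-classical markers Ace and Treml4, had 25.5 CPM in MASH and 105 CPM in chow at 12 weeks, on 7 and 23 UMIs, a ratio of 0.243 (0.0882 to 0.586). The sub-clusters led by Nkg7 and Ccl5 and by H2-Aa and H2-Eb1 had 11.9 and 12.0 CPM over all libraries. They held 76 and 186 of the 735 remaining cells in MASH and 15 and 56 of 359 in chow at 12 weeks. At 24 weeks they held 349 and 529 of 1569 in MASH and 26 and 51 of 370 in chow. The part of this makeup in the lower ratios of the remaining cells was not tested. Conventional-dendritic-like cells were also lower at 12 weeks, with 6.69 CPM in MASH and 15.4 CPM in chow, a ratio of 0.435 (0.251 to 0.758). A stricter cell filter gave a 12-week monocyte-like ratio of 0.516 (0.393 to 0.681).

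A further source of Serpinb2 was mesenchymal-like. The sub-cluster led by Spp1 and Cxcl5, with 71 cells in 12-week MASH and 34 in 24-week MASH and 0 in chow, had 184 CPM (164 to 207) and 105 CPM (83.0 to 131). It gave 23.8% of all Serpinb2 UMIs in 12-week MASH and 14.4% in 24-week MASH. In that sub-cluster 7 of 7 mesothelial and 4 of 8 T-cell markers were seen in at least 10% of cells. Several hashtags were carried by 30.5% of its cells, within the range of 14.7% to 35.3% of the other mesenchymal-like sub-clusters. The part of these features in the level was not tested. The other mesenchymal-like sub-clusters held at most 1 Serpinb2 UMI each in any library. Serpinb2 was thus found in MASH mesenchymal-like cells of 1 kind, at 81.5 CPM over the class in 12-week MASH and 2.71 CPM in 12-week chow, on 293 and 1 UMIs, a ratio of 30.01 (5.34 to 1189).

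**Figure D5:**
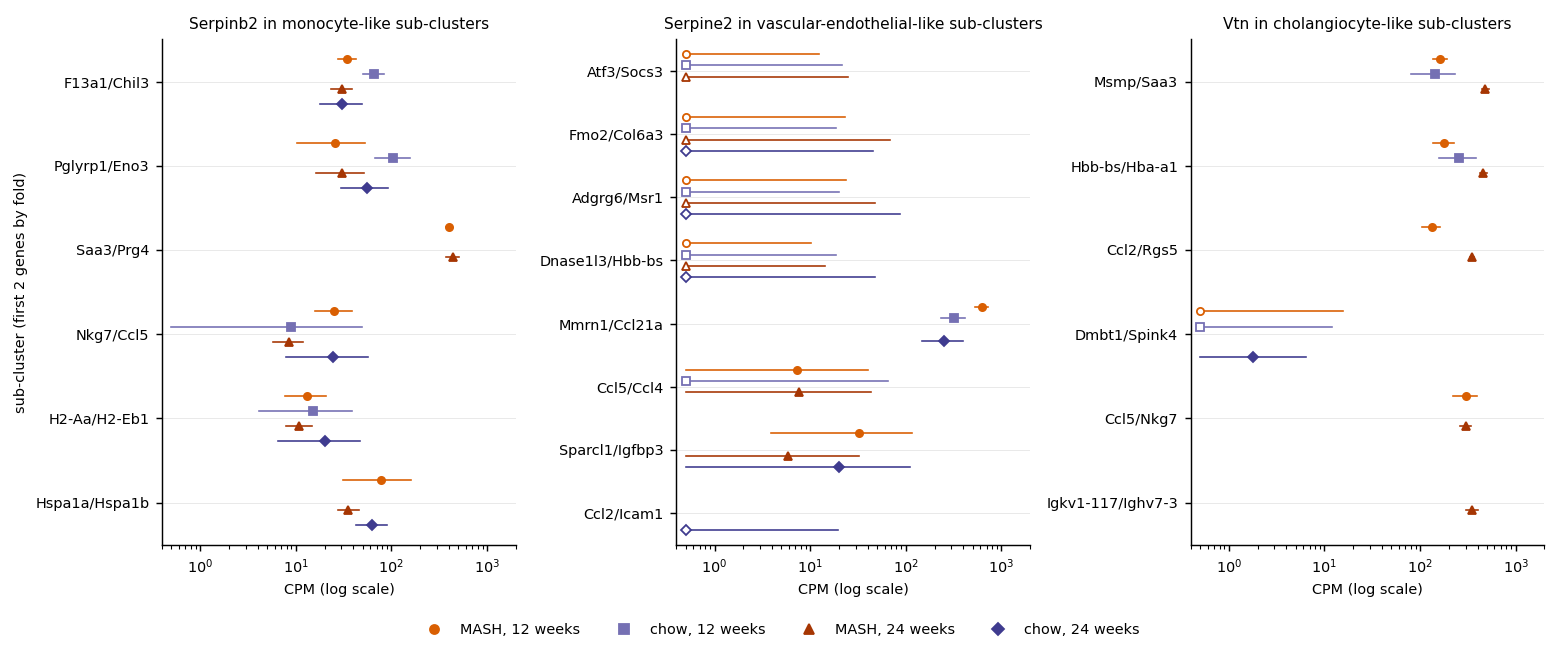
Level in CPM (x axis, log scale) of Serpinb2, Serpine2 and Vtn in the sub-clusters of their leading class (y axis, named by their first 2 genes) and in the 4 libraries, for sub-clusters with at least 10 cells; lines are exact Poisson 95% intervals, cut at 0.5 CPM, and open markers stand for 0 UMIs. Serpinb2 reached 398 CPM in 12-week MASH and 438 CPM in 24-week MASH in the Saa3 and Prg4 sub-cluster, Serpine2 was concentrated in the Mmrn1 and Ccl21a sub-cluster, and Vtn was near 0 in the Dmbt1 and Spink4 sub-cluster.

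Lrp1 (chr10:127538161-127621148, minus strand) encodes the receptor that clears complexes of activator and inhibitor. The antisense gene Gm16217 overlaps it and is in the feature table. Its level was high in 3 classes. Mesenchymal-like cells had 417 CPM in MASH (396 to 439) and 774 CPM in chow (686 to 869) at 12 weeks, a ratio of 0.539 (0.475 to 0.614), and 341 CPM in 24-week MASH. In the Gsn and Pi16 sub-cluster the values were 969 CPM in MASH (870 to 1076) and 1110 CPM in chow (977 to 1256), whose intervals overlap. Macrophage-like cells had 442 CPM in MASH (418 to 467) and 225 CPM in chow (170 to 291) at 12 weeks, a ratio of 1.96 (1.51 to 2.61), just under the 2-fold rule. They had 328 CPM in 24-week MASH.

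Monocyte-like cells, the main source of Lrp1 by UMIs, did not differ by diet beyond counting error. They had 356 CPM in MASH (342 to 371) and 349 CPM in chow (320 to 379) at 12 weeks, a ratio of 1.02 (0.931 to 1.12). At 24 weeks they had 289 CPM in both diets, a ratio of 0.998 (0.909 to 1.10). Over single hashtags the 12-week monocyte-like level ran from 363 to 383 CPM in MASH and from 331 to 392 CPM in chow. The higher all-cell Lrp1 in MASH was accompanied by more monocyte-like cells, 943 in MASH and 360 in chow at 12 weeks and 1600 in MASH and 370 in chow at 24 weeks. The summed T-cell markers of this class were 274 CPM in MASH and 229 CPM in chow at 12 weeks and 567 CPM in MASH and 259 CPM in chow at 24 weeks.

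Conventional-dendritic-like cells were called higher at 12 weeks, with 87.4 CPM in MASH and 42.7 CPM in chow, a ratio of 2.05 (1.60 to 2.65). At 24 weeks they had 78.1 CPM in MASH and 46.5 CPM in chow. Hepatocyte-like cells had 57.0 CPM in MASH and 6.54 CPM in chow at 12 weeks, on 41 and 11 UMIs. Their ratio was 8.72 (4.40 to 18.8). Lrp1 was also called higher in MASH in classes where it was scarce: T-cell-like cells had 5.83 CPM in MASH and 1.01 CPM in chow at 12 weeks, and B-cell-like cells 4.09 CPM in MASH and 1.18 CPM in chow. Further 12-week calls of higher Lrp1 were in NK-like, plasmacytoid-dendritic-like, erythroid-like and sinusoidal-endothelial-like cells. In the 12-week MASH library, the one whose matrix holds near-empty barcodes, 362780 barcodes under 100 UMIs held Lrp1 at 99.3 CPM (78.6 to 124), close to its 93.2 CPM in kept cells. In that library the conventional-dendritic-like level of 87.4 CPM lay within this interval, and the hepatocyte-like and lymphoid levels lay below it. The part of free RNA (RNA outside cells) in any of these levels was not tested, and no expression by lymphoid cells is claimed. Cholangiocyte-like cells were called lower at 24 weeks, with 43.6 CPM in MASH and 102 CPM in chow, a ratio of 0.426 (0.343 to 0.532), and had a ratio of 0.516 (0.354 to 0.763) at 12 weeks that was not called. Different sub-clusters held those cells in the 2 diets, as given for Vtn.

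Mrc2 (chr11:105292643-105351139, plus strand) encodes a collagen-uptake receptor, also called uPARAP, that binds the complex of urokinase and its receptor. Mesenchymal-like cells gave 93.8% of its UMIs in MASH and 83.3% in chow at 12 weeks, the highest share of 1 class among the members in either library, and 75.3% in 24-week MASH. In 24-week chow 1 of its 8 UMIs lay in that class. They had 71.5 CPM in MASH (63.0 to 80.7) and 81.4 CPM in chow (54.9 to 116) at 12 weeks, a ratio of 0.877 (0.600 to 1.33), and 33.9 CPM in 24-week MASH (26.6 to 42.6). Within the Gsn and Pi16 sub-cluster it had 143 CPM in MASH and 115 CPM in chow. The 12-week all-cell ratio of 5.01 was thus not seen inside the class, which held more cells in MASH. The Spp1 and Cxcl5 sub-cluster had 89.0 CPM in 12-week MASH and 47.1 CPM in 24-week MASH.

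Plgrkt (chr19:29348599-29367390, minus strand) encodes a transmembrane plasminogen receptor that ends in a lysine and is known from macrophages. It was found in every class. Basophil/mast-like cells had the highest level, at 114 CPM in MASH and 120 CPM in chow at 12 weeks and 129 CPM in both diets at 24 weeks. The leading genes of that class were mixed, as given for Serpine2, and the part of this in the Plgrkt level was not tested. T-cell-like cells had 79.2 CPM in MASH and 86.2 CPM in chow at 12 weeks and 75.7 CPM in MASH and 74.5 CPM in chow at 24 weeks. Monocyte-like cells stood below them, at 54.2 CPM in MASH and 48.4 CPM in chow at 12 weeks and 64.1 CPM in MASH and 56.8 CPM in chow at 24 weeks. Hepatocyte-like cells were the lowest, at 15.3 CPM in MASH and 11.3 CPM in chow at 12 weeks and 6.90 CPM in MASH and 13.5 CPM in chow at 24 weeks. Its MASH over chow ratios stayed within 2-fold in the named classes compared, except in neutrophil-like cells, where the 12-week call (ratio 3.03, 1.21 to 9.74) rested on 49 UMIs in MASH and 5 in chow. Empty barcodes held it at 42.8 CPM (29.6 to 59.7).

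Vtn (chr11:78499091-78502324, plus strand) encodes vitronectin, a plasma and matrix protein made by hepatocytes that binds uPAR and integrins. Cholangiocyte-like cells had 164 CPM in MASH (148 to 181) and 120 CPM in chow (93.5 to 153) at 12 weeks, a ratio of 1.36 (1.05 to 1.79). At 24 weeks they had 388 CPM in MASH (373 to 402) and 1.78 CPM in chow (0.216 to 6.43), on 2836 and 2 UMIs, a ratio of 218 (60.2 to 1798). Cholangiocyte-like cells gave 54.3% of its UMIs in MASH and 26.2% in chow at 12 weeks, and 90.7% in MASH and 0.787% in chow at 24 weeks.

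The cells compared differed in sub-cluster between the diets at both weeks. Of the 44 cholangiocyte-like cells in 24-week chow, 43 lay in the sub-cluster led by Dmbt1 and Spink4, which held 0 of the 556 cells in 24-week MASH and had 6 of 8 T-cell markers in at least 10% of its cells. That sub-cluster had 0 Vtn UMIs in 12-week MASH (14 cells) and in 12-week chow (25 cells), and 1.79 CPM in 24-week chow. Without it the 12-week level in the class was 182 CPM in MASH (164 to 201) and 268 CPM in chow (208 to 339), a ratio of 0.679 (0.524 to 0.892) on the other side of 1 that was not called. Outside it, 1 cell remained in 24-week chow, so no ratio could be formed. The 24-week ratio therefore compares cells of different sub-clusters and gives no diet difference within 1 kind of cell.

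Between the MASH libraries Vtn could be compared within sub-clusters. At 24 over 12 weeks it was 2.96-fold higher (2.46 to 3.60) in the sub-cluster led by Msmp and Saa3, 2.65-fold (2.14 to 3.32) in that led by Ccl2 and Rgs5, and 2.57-fold (1.97 to 3.39) in that led by Hbb-bs and Hba-a1. Each rests on 1 library a week, so week and library cannot be told apart. In MASH cholangiocyte-like cells the 9 hepatocyte markers summed to 7054 and 7177 CPM at 12 and 24 weeks. The 7 cholangiocyte markers summed to 3731 and 3511 CPM. In the sub-clusters just named, 7, 6 and 5 of 9 hepatocyte markers were seen in at least 10% of cells, beside all cholangiocyte markers. The one led by Hbb-bs and Hba-a1 also held Fabp1, Gnmt and Uox among its leading genes. Their part in the Vtn levels was not tested. Over hashtags the cholangiocyte-like level ran from 97.7 to 238 CPM in 12-week MASH and from 214 to 707 CPM in 24-week MASH, with the median at 106 and 330 CPM.

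Hepatocyte-like cells were shallow and numbered 427 in MASH and 1354 in chow at 12 weeks, and 619 in MASH and 1936 in chow at 24 weeks. They had Vtn at 268 CPM in MASH (232 to 309) and 52.3 CPM in chow (41.9 to 64.4) at 12 weeks, a ratio of 5.13 (3.97 to 6.68). At 24 weeks they had 65.3 CPM in MASH and 54.0 CPM in chow. Vtn was also read against hepatocyte transcripts. In cholangiocyte-like cells there were 23.2 Vtn UMIs per 1000 hepatocyte-marker UMIs in MASH (20.9 to 25.7) and 21.4 in chow (16.6 to 27.2) at 12 weeks, and 54.0 in MASH (52.0 to 56.1) and 0.569 in chow (0.0689 to 2.06) at 24 weeks. In hepatocyte-like cells the figures were 11.4 in MASH and 4.11 in chow at 12 weeks and 3.87 in MASH and 3.56 in chow at 24 weeks. Except in 24-week chow, Vtn in cholangiocyte-like cells was above the ratio of hepatocyte-like cells of the same library. Other classes were above it too: B-cell-like cells had 18.5 in 24-week MASH and 24.3 in 12-week chow, and vascular-endothelial-like cells had 35.0 in 12-week chow on 9 Vtn UMIs. This ratio therefore does not set cholangiocyte-like cells apart, and the part of free RNA in the Vtn levels was not tested.

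Between the weeks the members differed in direction. These comparisons use the same 4 libraries as the diet comparisons. Over all cells of MASH, 4 members were called lower at 24 weeks, where 6.27% of all genes were, and 1 was called higher, where 8.71% were. Plat had a 24-week over 12-week ratio of 0.235 (0.197 to 0.279), Mrc2 of 0.265 (0.208 to 0.336), Serpinb2 of 0.331 (0.298 to 0.366) and Serpine2 of 0.465 (0.394 to 0.548), while Vtn had 3.32 (3.05 to 3.60). In chow, Mrc2 at 0.171 (0.0686 to 0.374), Plat at 0.280 (0.193 to 0.4004) and Plau at 0.429 (0.350 to 0.524) were called lower, where 8.18% of genes were, and none was called higher, where 5.96% were. Within mesenchymal-like cells of MASH, Plat at 0.2997 (0.235 to 0.379) and Mrc2 at 0.474 (0.361 to 0.617) were called lower, where 6.88% of genes were called lower and 3.31% higher. The Gsn and Pi16 sub-cluster, which had the highest level of both genes over all libraries, held 1 cell of the class in 24-week MASH and 49 in 12-week MASH, and the fibroblast markers summed to 432 and 2744 CPM. In their leading classes of MASH, Serpinb2 in monocyte-like cells (0.244, 0.216 to 0.276) and Serpine2 in vascular-endothelial-like cells (0.0222, 0.00267 to 0.0817) were also called lower at 24 weeks, where 4.07% and 3.92% of genes were, beside 5.74% and 3.92% called higher. Outside the Saa3 and Prg4 sub-cluster, MASH monocyte-like cells had Serpinb2 at 17.7 CPM at 24 weeks and 27.2 CPM at 12 weeks, less than 2-fold apart, and inside it the levels were 438 and 398 CPM. The Mmrn1 and Ccl21a sub-cluster behind the Serpine2 level held 1 and 43 cells. Vtn in cholangiocyte-like cells was called higher (2.37, 2.13 to 2.64), where 3.03% of genes were called higher and 2.56% lower. Plau in macrophage-like cells had a ratio of 1.51 (1.20 to 1.91) and was not called, in a class with 3.21% of genes higher and 4.29% lower. Plgrkt in basophil/mast-like cells was not called in MASH, where 3.86% of genes were higher and 2.31% lower, or in chow, where 3.51% were higher and 5.15% lower. In chow, Vtn in cholangiocyte-like cells was called lower at 24 weeks (0.0148, 0.00176 to 0.0555), where 3.72% of genes were called higher and 8.03% lower. Serpinb2 in chow monocyte-like cells (2.89% of genes higher, 1.6% lower) and Serpine2 in chow vascular-endothelial-like cells (2.34% higher, 2.6% lower) were not called.

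Beside the 8 members, 28 further genes of the pathway were read as counts and values. Over all cells 7 of 27 tested were called higher and 2 lower in MASH at 12 weeks, where 9.29% and 3.52% of all genes tested were. At 24 weeks 8 of 26 were called higher and 0 lower, where 14.3% and 3.98% of all genes were. Among those called higher at both weeks were the endocytic receptors Lrp2 and Vldlr, the protease Hpn and the vitronectin-binding integrin chain Itgb5. In cholangiocyte-like cells Itgav and Vldlr were called higher and Plaur lower in MASH at both weeks. In that class 6.46% of all genes were called higher and 4.62% lower at 12 weeks, and 21.5% and 6.75% at 24 weeks. The Dmbt1 and Spink4 sub-cluster held 14 of 182 MASH and 25 of 63 chow cells at 12 weeks. At 24 weeks it held 0 of 556 MASH and 43 of 44 chow cells. Both weeks thus compare unlike mixes of sub-clusters, whose part in these calls was not tested. Plaur, the urokinase receptor, had 90.3 CPM in MASH and 94.3 CPM in chow at 12 weeks over all cells, and 77.9 CPM in MASH and 78.5 CPM in chow at 24 weeks. Plg, the substrate, had 2.39 CPM in MASH and 2.396 CPM in chow at 12 weeks, and 1.96 CPM in MASH and 2.59 CPM in chow at 24 weeks.

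For each member the genes with the most similar pattern were found by Pearson correlation of log2(CPM + 10) over 58 sums of class by library. Libraries and depth are shared among these points, so the values are descriptions. Mrc2 was most like Lvrn (r = 0.998), Srpx and Col6a5. Plat was most like Fndc1 (0.958), Aebp1 and Col14a1, and Vtn most like Aadac (0.961), Proc and Cyp4f14. Plau was most like Rab3il1 (0.913), Loxl3 and Mertk. Lrp1 was most like Itgb5 (0.892), Abca9 and Nupr1, and Plgrkt most like Snrnp70 (0.849), Atxn2l and Bcor. Serpinb2 was most like Fn1 (0.799), Vcan and Mfsd7a. Serpine2 had the weakest likeness, with Tmem158 (0.759), Ptn and Tmod2.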

How the data were processed

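Single-cell RNA was captured with 10x 5′ chemistry from liver non-parenchymal cells, 1 library per diet and week. The deposited files hold UMI counts per gene and barcode, made by the authors with Cell Ranger 4 for 12-week MASH and 5.0.1 for the others, per the file headers; builds mm10 and GRCh38 are named in the submitters' processing notes. Cells with at least 500 gene UMIs, 300 genes and at most 15% mitochondrial UMIs were kept, and Scrublet in scanpy 1.11.5 removed 12.1% and 10.6% of them in MASH and 11.9% and 23.8% in chow at 12 and 24 weeks. The 12-week MASH matrix holds 737280 barcodes, of which 19091 had at least 500 UMIs. Clustering used 2000 variable genes without the members and pathway genes, 30 components, 15 neighbours and resolution 1, giving 25 clusters. Summed UMIs per library ran from 42988990 to 87193629. CPM and ratios carry exact intervals (scipy 1.17.1) that cover counting error only. A 2-fold call was tested on simulated counts. The named genes are all 8 members, pathway genes called in the same direction at both weeks (1 is not reported here), and the 3 most alike genes of each member. Plaur and Plg were added by name, and sub-clusters and the alternatives built on them were chosen after seeing the data. The members and lists were chosen with earlier results of these data known. Hashtag antibodies, 3 in each 12-week and 8 in each 24-week library, have no stated meaning and were not used as replicates. Before doublet removal, 27.8% and 25.0% of MASH cells and 20.4% and 23.1% of chow cells at 12 and 24 weeks carried several. Scrublet removed 24.8% and 30.5% of these in MASH and 27.0% and 55.6% in chow, so some remained in every library. Alternatives covered filters, doublets, resolution, scaling, fold and left-out sub-clusters.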

Additional observations from a re-analysis of the deposited data

Results flagged for a closer look

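Serpine2 in vascular-endothelial-like cells had MASH over chow ratios on opposite sides of 1, 2.15 at 12 weeks and 0.0738 at 24 weeks. The difference between the weeks was not tested, since each library stands alone, and the later value rested on 2 UMIs in MASH and 19 in chow. Vtn in cholangiocyte-like cells had 24-week over 12-week ratios on opposite sides of 1, 2.37 in MASH and 0.0148 in chow. This difference was not tested either, and 43 of the 44 cells in 24-week chow belonged to the sub-cluster led by Dmbt1 and Spink4.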

How the results depend on the processing

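Over all cells, 4 to 5 members were called higher in MASH at 12 weeks and 5 to 7 at 24 weeks in the alternatives run. Within leading classes the counts were less stable. The 12-week monocyte-like Serpinb2 ratio turned round to 0.516 with a stricter cell filter, 0.443 without sub-clusters with T-cell markers and 0.466 without the Saa3 sub-cluster. The Saa3 sub-cluster is itself among those with T-cell markers, so these removals are not separate checks. With the stricter filter the leading class of Serpinb2 was macrophage-like, and whether the Saa3 cells changed class there was not tested. The 24-week vascular-endothelial-like Serpine2 ratio turned round to 1.24 without the Mmrn1 sub-cluster. The count of 2 called higher at 12 weeks became 0 with the mean of per-cell CPM, and 1 with the stricter filter, with resolution 0.5 or 2, or without the T-marker, Saa3 or Mmrn1 sub-clusters. At resolution 0.5 the monocyte-like Serpinb2 and vascular-endothelial-like Serpine2 ratios were not formed, and the member called at 12 weeks was Plau, at 3.09. The count of 0 lower became 1 at 1.5-fold or without the T-marker or Saa3 sub-clusters. At 24 weeks the count of 1 higher became 2 at resolution 0.5. With either set of chow hashtags, or without the T-marker or Dmbt1 sub-clusters, it was 0. There the Vtn ratio was not formed, with fewer than 20 chow cells left. The count of 1 lower became 2 without doublet removal, with the mean of per-cell CPM or without the Saa3 sub-cluster, and 0 with single-hashtag cells, the stricter filter, resolution 0.5, either chow hashtag set or without the Mmrn1 sub-cluster. With single-hashtag cells, the stricter filter and the chow hashtag sets, the Serpine2 ratio was 0, 0, 0.0778 and 0.142. Its call ended there because the summed UMIs fell short of 20. Equal counts can hide other genes: without doublet removal the 12-week Serpinb2 call was lost, at 1.61, and Plau in macrophage-like cells was called, at 2.77. Apart from the removals, which change which cells are counted, the cause was not tested. Vtn over all cells at 12 weeks was called with single-hashtag cells at 2.07 and with the stricter filter at 2.16. Sub-cluster borders moved with numerical precision, most in the sinusoidal-endothelial-like class, whose sub-clusters are not used. Scaling by the median of ratios gave no class levels. No paired analysis was possible because each group had 1 library. Depth limits Mrc2 and Plat in 24-week chow, with 8 and 43 UMIs.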
